A study of Mus musculus with 16 samples.

Results

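DNA methylation was described at 6 regions in or over the genes Ywhag, Nacad, Csf2ra, Ston2, Epha2 and Nr4a1 of mouse embryonic stem cells (mESCs). The study does not count any of these genes as imprinted. The regions were chosen from a list of 107 regions that the study called hypomethylated in old passage cells, so their level in old and young passage cells was fixed by the choice and is given as a description without a test. Each was read with 10 kb of flanking sequence on either side, and they held 296 of the 1320646 CpGs with at least 10 reads in any library.

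Reduced representation bisulfite sequencing (RRBS) reads the methylation of CpG-rich parts of the genome after a restriction digest. Bisulfite converts unmethylated cytosines, so the percentage of reads that keep a cytosine is the methylation level of a CpG. There were 8 conditions with 2 libraries each, all from the E14 mESC line. The mESCs were grown in serum with LIF, and LIF was left out for the embryoid bodies. YP-mESCs had been kept for about 14 passages and OP-mESCs for about 70. OP-S33Y #1 and OP-S33Y #2 were each a single clone of E14 mESCs that stably expressed the S33Y form of β-catenin, which escapes degradation, and were then cultured for a long time. The labels give no passage number for the clones. mESC shCtrl and mESC shβcat were young mESCs transduced with a control shRNA or with shRNA #1 against β-catenin. EB shCtrl and EB shβcat were embryoid bodies made from such cells and taken at day 8. Embryoid bodies are aggregates that differentiate into a mixture of lineages, so a level there is an average over cell types. The files hold methylation only. The identity of the cells and the loss of β-catenin therefore could not be checked through marker transcripts.

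Methylation within transcribed gene bodies is common in mammalian cells and often accompanies transcription, whereas CpG islands at gene starts are mostly unmethylated. In mESCs grown in serum, methylation varies between cells and with time in culture, and it is raised by the de novo methyltransferases when pluripotent cells differentiate. The 6 genes encode proteins of different kinds. Csf2ra encodes the ligand-binding chain of the GM-CSF receptor, and Epha2 a receptor tyrosine kinase for ephrins. Ywhag encodes 14-3-3γ, an adaptor that binds phosphorylated proteins, Nacad a protein with a domain of the nascent polypeptide-associated complex, and Ston2 the endocytic adaptor stonin 2. Nr4a1 encodes the orphan nuclear receptor Nur77, an immediate early gene.

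Stretches of 5 of the regions, all but Epha2, are shown as examples. They are the plus strand of the mm9 reference, 5′ to 3′, with capitals at the CpGs that had at least 10 reads in 15 or 16 of the libraries.
Ywhag, chr5:136386993-136387192: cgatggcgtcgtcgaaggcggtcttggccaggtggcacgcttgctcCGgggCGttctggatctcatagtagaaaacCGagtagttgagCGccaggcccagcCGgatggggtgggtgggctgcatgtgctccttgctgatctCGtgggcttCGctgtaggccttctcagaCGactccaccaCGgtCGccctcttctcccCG
Nacad, chr11:6498996-6499216: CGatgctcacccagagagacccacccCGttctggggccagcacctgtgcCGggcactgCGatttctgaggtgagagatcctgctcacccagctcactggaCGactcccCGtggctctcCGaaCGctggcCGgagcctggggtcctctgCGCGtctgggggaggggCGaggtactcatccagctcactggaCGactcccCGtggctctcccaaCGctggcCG
Ston2, chr12:92886001-92886200: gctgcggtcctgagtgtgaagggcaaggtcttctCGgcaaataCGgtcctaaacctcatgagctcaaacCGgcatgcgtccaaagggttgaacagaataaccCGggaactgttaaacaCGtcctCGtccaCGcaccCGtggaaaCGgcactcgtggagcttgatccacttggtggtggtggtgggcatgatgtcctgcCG
Nr4a1, chr15:101100516-101100715: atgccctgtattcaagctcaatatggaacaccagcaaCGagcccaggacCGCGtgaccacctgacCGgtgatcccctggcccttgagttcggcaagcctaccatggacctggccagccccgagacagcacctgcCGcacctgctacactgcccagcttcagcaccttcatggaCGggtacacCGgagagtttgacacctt
Csf2ra, chr19:61302294-61302493: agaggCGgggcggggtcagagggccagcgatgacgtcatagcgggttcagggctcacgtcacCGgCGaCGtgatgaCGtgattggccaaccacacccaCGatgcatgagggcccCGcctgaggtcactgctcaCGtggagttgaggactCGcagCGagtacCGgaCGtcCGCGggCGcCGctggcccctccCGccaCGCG
The Ywhag stretch lies wholly in coding sequence and holds 17 CpGs, of which 11 were measured in this way. Their mean level was 60.6% in YP-mESCs, 35.6% in mESC shCtrl and 86.7% in EB shCtrl. The Nacad stretch is the whole region, and all of its 16 CpGs were measured. It contains the 32 bases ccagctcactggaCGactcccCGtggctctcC at chr11:6499083-6499114 and again at chr11:6499173-6499204. At the first CpG of that repeat the earlier and the later copy were at 43.1% and 56.1% in YP-mESCs, 26.2% and 33.2% in mESC shCtrl and 61.8% and 61.7% in EB shCtrl. At the second CpG they were at 51.8% and 69.2%, 18.4% and 28.4%, and 60.0% and 73.0%. The later copy was the higher in 5 of these 6 pairs, although the bases of the copies are the same. How the alignment placed reads on them was not tested. The Ston2 and Nr4a1 stretches are coding throughout, and that of Nr4a1 begins with the ATG of the coding sequence. Its 7 measured CpGs had a mean of 44.5% in YP-mESCs, 9.2% in mESC shCtrl and 74.7% in EB shCtrl. Of the Csf2ra stretch 33% is coding, and its 19 measured CpGs were at 44.5%, 34.6% and 44.1% in the same conditions.

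Summed over CpGs, the libraries had read counts of 18919219 to 40519010, with a read counted at each CpG it spans. Each library covered 413282 to 1152971 CpGs. The smallest set of CpGs was that of OP-mESC replicate 2, and chromosome 13, which holds none of the regions, was absent from YP-mESC replicate 2. Over the 329078 CpGs covered in all 16 libraries, the mean level was 24.4% ± 0.01 (SD, n = 2) in YP-mESCs, 21.09% ± 0.04 in OP-mESCs, 27.04% ± 0.02 in mESC shCtrl and 31.44% ± 0.12 in EB shCtrl. OP-S33Y #1 was at 24.73% ± 0.03 and OP-S33Y #2 at 23.56% ± 0.18. Over these CpGs mESC shCtrl and OP-S33Y #1 thus lay above YP-mESCs and OP-S33Y #2 below. In all 6 regions the means of mESC shCtrl and both clones lay below those of YP-mESCs. The regions were chosen on a fall from these YP-mESC libraries, so their place below YP-mESCs is no independent result. For a region, the percentages of all CpGs covered by 10 or more reads were averaged to give its level.

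Of the 6 regions, 5 lay inside the gene, away from its start, in the mm9 annotation. The Ywhag region (chr5:136386544-136387192) was in the last exon, 23294 to 23942 bp from the start of the gene, with 50.1% of its bases coding and 49.9% UTR. The Nacad region (chr11:6498996-6499216) was 80.5% coding and 19.5% intronic. The Ston2 region (chr12:92885692-92887061) was wholly coding and lay 139766 to 141135 bp from the start. The Epha2 region (chr4:140878089-140882781) was 84.9% intronic and 15.1% coding. The Nr4a1 region (chr15:101100443-101102620) was 48.3% coding and 51.6% intronic, beginning 3166 bp from the start. The Csf2ra region (chr19:61301189-61304539) was the exception, since it ran over most of this short gene and past its start. It was 31.5% coding, 59.6% intronic and 6.5% outside the gene. Coding exons held 64.7% of the measured CpGs of Ywhag, 87.5% of Nacad, 52.9% of Csf2ra, 100% of Ston2, 55.6% of Epha2 and 96.4% of Nr4a1. Coding exons held 18.2% of the 365703 CpGs measured in all YP-mESC and OP-mESC libraries. The regions were also CpG-rich to different degrees, with 8.1 CpGs per 100 bp in Csf2ra, 7.2 in Nacad, 6.0 in Ywhag, 5.7 in Ston2, 3.0 in Nr4a1 and 2.3 in Epha2.

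The levels of Ywhag in replicates 1 and 2 were 57.8% and 57.9% in YP-mESCs and 7.7% and 8.1% in OP-mESCs, over the same 17 CpGs in every library. They were 28.3% and 30.0% in OP-S33Y #1, 21.7% and 22.8% in OP-S33Y #2, 34.0% and 35.7% in mESC shCtrl and 40.6% and 45.8% in mESC shβcat. In EB shCtrl they were 87.1% and 85.6%, and in EB shβcat 87.4% and 89.6%. No neighbouring conditions in the order of the Ywhag means overlapped in their replicates, and OP-mESCs were lowest and EB shβcat highest. Lack of overlap is common with 2 libraries a condition. It was found in 18.5% to 47.9% of all features in the comparisons given further on. The place of OP-mESCs below YP-mESCs was fixed by the choice. The same limits hold for the orders of the other regions. As means of the 2 libraries, the 17 CpGs of Ywhag lay between 35.2% and 76.9% in YP-mESCs and none was below 20%. By the same means 16 were below 20% in OP-mESCs and 15 were above 80% in either EB condition.

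Nacad was at 59.9% and 62.8% in YP-mESCs and at 16% and 18.2% in OP-mESCs, over 16 CpGs. The values were 43.6% and 45.7% in OP-S33Y #1, 40.0% and 39.2% in OP-S33Y #2, 38.2% and 45.7% in mESC shCtrl and 49.3% and 44.5% in mESC shβcat. They were 69.3% and 75.7% in EB shCtrl and 79.7% and 78.9% in EB shβcat. The clones and the transduced mESCs formed a middle group whose neighbours in the order overlapped, between OP-mESCs below and YP-mESCs and EBs above. Its flanks were higher and closer together. Over 18 flanking CpGs covered in every library except OP-mESC replicate 2, the mean was 66.0% ± 0.1 (SD, n = 2) in YP-mESCs, 70.3% ± 0.9 in mESC shCtrl and 84.2% ± 1.6 in EB shCtrl.

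Ston2 was at 53.3% and 50.2% in YP-mESCs and at 9.6% and 14.6% in OP-mESCs, over 10 to 42 CpGs a library. It was at 34.7% and 35.7% in OP-S33Y #1, 28.4% and 33.3% in OP-S33Y #2, 29.2% and 26.8% in mESC shCtrl and 36.0% and 30.1% in mESC shβcat. In the EBs it was at 85.1% and 82.3% with shCtrl and 87.6% and 91.3% with shβcat. Again the clones and transduced mESCs overlapped as neighbours while OP-mESCs, YP-mESCs and EBs stood clear of them. As means of CpGs covered in both libraries, 37 of 38 were above 80% in EB shβcat. None of these means was above 80% in any of the mESC conditions or clones. In single libraries the highest CpG of OP-S33Y #2 replicate 2 was at 100%.

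Epha2, one of the receptors, had means from 49.3% to 52.9% among the clones and transduced mESCs, over unlike sets of CpGs. Over the 14 CpGs covered in all 16 libraries, Epha2 instead ran from 44.3% in mESC shCtrl to 54.1% in OP-S33Y #1. It was at 61.2% and 60.3% in YP-mESCs and 33.9% and 29.9% in OP-mESCs, over 14 to 36 CpGs a library. It was at 54.1% and 51.7% in OP-S33Y #1, 52.2% and 50.0% in OP-S33Y #2, 46.9% and 52.4% in mESC shCtrl and 49.1% and 49.5% in mESC shβcat. EB shCtrl had 85.8% and 86.1% and EB shβcat 88.9% and 88.4%. Among the 4 conditions of clones and transduced mESCs each overlapped its neighbour in the order, but both mESC shβcat libraries lay below those of either clone.

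Csf2ra, the other receptor, had the lowest levels in differentiated cells. It was at 32.8% and 30.2% in YP-mESCs and at 6.8% and 12% in OP-mESCs, where replicates 1 and 2 rested on 91 and 13 CpGs. It was at 28.2% and 31.5% in OP-S33Y #1, 20.6% and 19.6% in OP-S33Y #2, 21.2% and 21.2% in mESC shCtrl and 19.7% and 19.3% in mESC shβcat. It was at 31.0% and 34.0% in EB shCtrl and at 35.6% and 37.3% in EB shβcat. YP-mESCs, OP-S33Y #1 and EB shCtrl overlapped as neighbours, unlike in the other 5 regions, where YP-mESCs lay clear of the EBs. In EB shCtrl the means of its 136 CpGs covered in both libraries spanned 0% to 95.1% with a median of 26.6%. A single level thus covers CpGs of unlike levels. The 9 measured CpGs upstream of the gene were at 63.2% in EB shCtrl and the 55 intronic ones at 28.5%.

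Nr4a1, the nuclear receptor gene, was at 48.0% and 40.4% in YP-mESCs and at 12.1% in OP-mESC replicate 1, while OP-mESC replicate 2 had 1 covered CpG and gave no value. It was at 18.0% and 20.2% in OP-S33Y #1, 12.7% and 11.5% in OP-S33Y #2, 21.8% and 21.5% in mESC shCtrl and 26.0% and 24.4% in mESC shβcat. It was at 76.4% and 80.6% in EB shCtrl and 88.4% and 90.6% in EB shβcat. Among conditions with a value in both libraries no neighbours overlapped, and OP-S33Y #2 lay at the level of the single OP-mESC value. This order rests on unlike sets of CpGs, with 13 or 14 in OP-S33Y #1 and 24 or 25 in mESC shCtrl. Over the 13 CpGs covered in all libraries of both, OP-S33Y #1 was instead the higher, by 3.2 points.

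**Figure D1:**
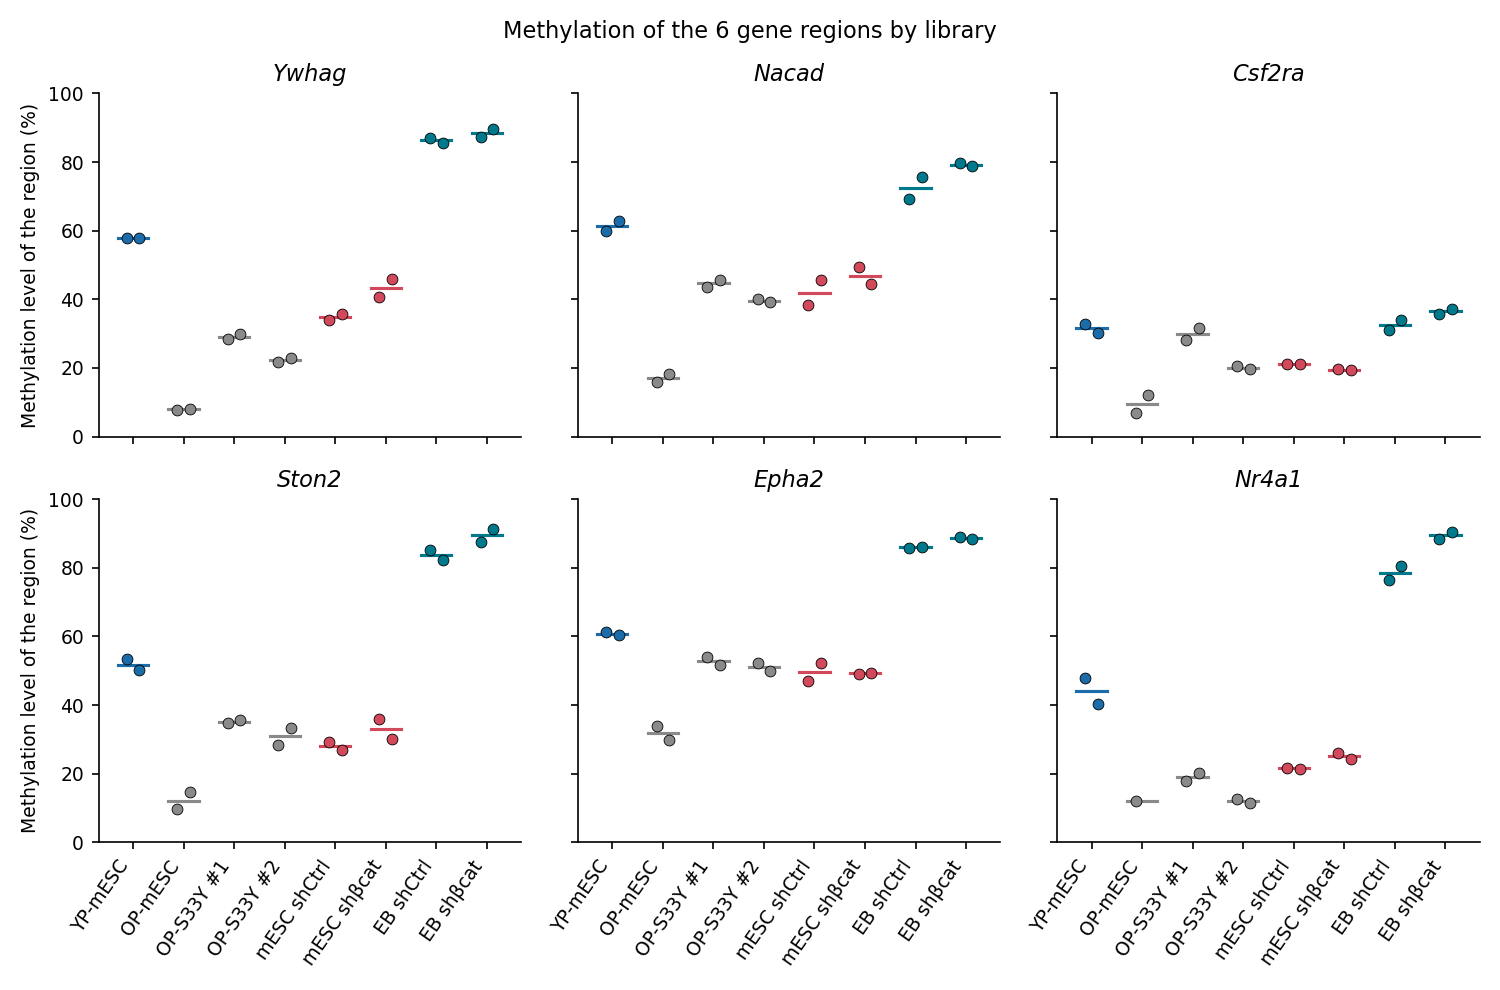
Methylation level of each region (y axis, percent, 0 to 100) in the 8 conditions (x axis). Points are the 2 replicates, joined by a line at their mean; OP-mESCs have 1 value for Nr4a1. The EB points of 5 regions lie above 69%, whereas those of Csf2ra lie between 31.0% and 37.3%.

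The fall that chose the regions was described CpG by CpG, over CpGs measured in all YP-mESC and OP-mESC libraries. Levels in OP-mESCs were lower by more than 25 percentage points at 17 of 17 CpGs in Ywhag, 16 of 16 in Nacad, 10 of 10 in Ston2, 9 of 14 in Epha2, 7 of 12 in Csf2ra and 1 of 1 in Nr4a1, and at none was the level higher by that much. Of all 365703 CpGs compared, 3.38% were lower by more than 25 points. The study's list asks for 10 such CpGs, which Ywhag, Nacad and Ston2 reached under the requirement of 10 reads in all 4 libraries. Ston2 reached it with none to spare and Epha2 fell just outside it.

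Differentiation was compared between mESCs and day 8 EBs with the same shRNA. The study's list of regions did not use these libraries. The 6 were taken from that list with earlier results of these data known, so the choice may not be independent of this contrast. Every region was more methylated in EBs. With shCtrl the mean rose from 21.6% ± 0.2 (SD, n = 2) to 78.5% ± 3.0 in Nr4a1, from 28.0% ± 1.7 to 83.7% ± 2.0 in Ston2 and from 34.9% ± 1.2 to 86.3% ± 1.1 in Ywhag. The differences, over CpGs with 10 reads in all 4 libraries, were 56.3 percentage points in Nr4a1, 55.7 in Ston2, 51.4 in Ywhag, 35.8 in Epha2, 30.6 in Nacad and 11.1 in Csf2ra. Both EB shCtrl libraries were above both mESC shCtrl libraries in all 6, as in 47.9% of all features tested and in 93.2% of those that began within the range of the regions, described below. By edgeR's quasi-likelihood test of methylated and unmethylated reads, adjusted over all features, the adjusted p was 2.7e-09 for Nr4a1, 1.1e-09 for Ston2, 3.9e-09 for Ywhag, 5.3e-08 for Epha2, 8.3e-06 for Nacad and 0.013 for Csf2ra. The features were the 6 regions and 1 kb tiles of the rest of the genome. All 6 regions were called higher, and so were 26.5% of the 75688 features tested, whose median difference was 1.66 points. A difference of more than 25 points with an adjusted p under 0.05 was found in 5 of the 6 and in 9.47% of features. Most features have low levels in mESCs and cannot be set beside the regions directly. Of the 5484 features whose mESC shCtrl level lay within the range of the regions, 21.2% to 49.7%, 80.0% were called higher, with a median difference of 29.7 points. These features were chosen on their level in the libraries tested. The gains of Nr4a1, Ston2, Ywhag and Epha2 were above that median, that of Nacad was within 1 point of it and that of Csf2ra was below it. Csf2ra is the call that depended on single libraries. Its adjusted p was 0.066 without EB shCtrl replicate 1, 0.14 without EB shCtrl replicate 2 and 0.066 without mESC shCtrl replicate 1.

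With shβcat the order of the regions was the same. The difference between EBs and mESCs was 64 points in Nr4a1, 57.2 in Ston2, 45.3 in Ywhag, 40.2 in Epha2, 32.4 in Nacad and 16.2 in Csf2ra. All 6 were called higher by edgeR, with adjusted p from 5.9e-08 in Nr4a1 to 0.00076 in Csf2ra, as were 25.9% of 74502 features. More than 25 points were gained in 5 of the 6 regions and in 8.32% of features. Both EB libraries were above both mESC libraries in all 6, as in 37.8% of features. Among the 5271 features that began within the range of the regions in mESC shβcat, 82.7% were called higher and 92.8% had EB libraries wholly above mESC libraries, with a median difference of 28.7 points.

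The gain in EBs reached beyond some of the regions. In the 10 kb flanks 11 tiles could be tested with shCtrl, of which 7 were called higher and none lower, against 26.5% of all features called higher. With shβcat 8 of 12 were called higher, against 25.9%, and 1 was called lower, a tile beside Nacad. These shares are over features of any level in mESCs. The flanking tiles were not set beside features of like level, and some directly adjoin a region. Whether flanks gained more than like features was therefore not tested. With shCtrl all 3 flanking tiles of Epha2 were called, with differences of 28.6 to 41.0 points, against 35.8 in the region itself. One of the 3 tiles beside Nacad was called, and neither of the other two. Csf2ra had no flanking tile with enough CpGs. Levels at the gene starts differed between the genes. Within 1 kb of the start, Ywhag was at 0.3% ± 0.4 (SD, n = 2) in mESC shCtrl and 0.5% ± 0.3 in EB shCtrl, and Epha2 at 0.4% ± 0.2 and 0.3% ± 0.0. Nr4a1 was at 2.1% ± 1.3 in mESC shCtrl, 7.5% ± 3.1 in EB shCtrl and 10.9% ± 1.0 in EB shβcat. The start of Nacad had 1 or 2 measured CpGs a library, and gave 16.7% ± 1.9 in YP-mESCs and, from 1 library each, 28.8% in EB shCtrl and 37.8% in EB shβcat. The starts of Csf2ra and Ston2 had none outside the regions, and the 9 CpGs of the Csf2ra region upstream of the gene were at 42.1% in mESC shCtrl and 63.2% in EB shCtrl.

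**Figure D2:**
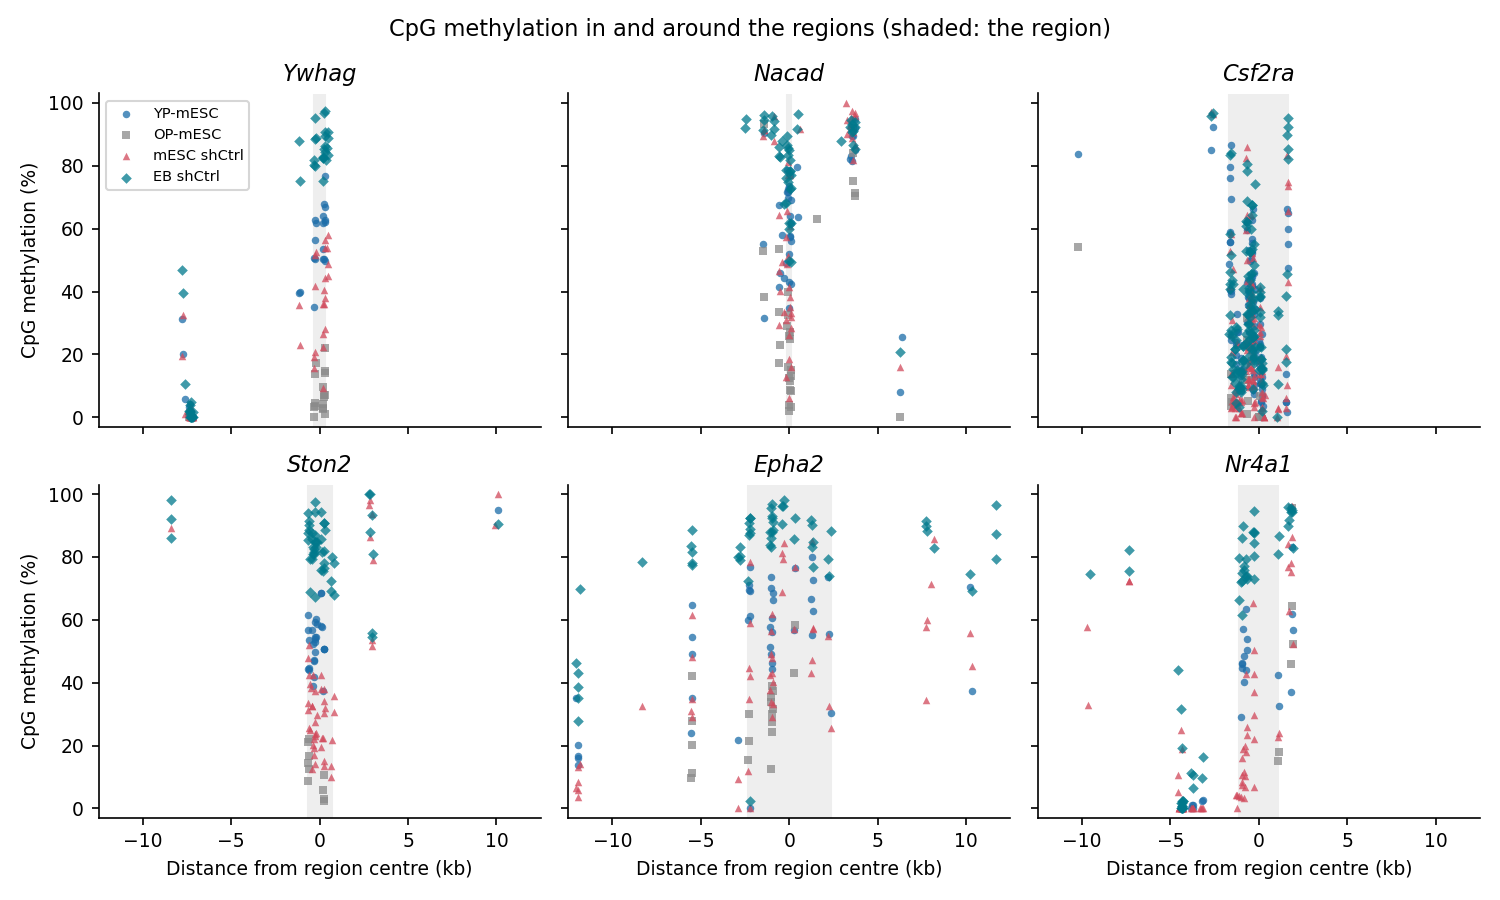
Methylation of single CpGs (y axis, percent) against distance from the centre of each region in genome direction (x axis, kb), shaded over the region, as means of 2 libraries in YP-mESCs, OP-mESCs, mESC shCtrl and EB shCtrl. In Ywhag the EB points of the region lie between 75.2% and 97.4% while most points at the left, beyond the 3′ end of the gene, lie close to 0.

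Silencing of β-catenin was compared with the control shRNA within mESCs and within EBs. In mESCs no region was called by edgeR. The difference between shβcat and shCtrl was 8.3 points in Ywhag (adjusted p = 0.29), 5 in Nacad and in Ston2, 4 in Nr4a1, 1.3 in Epha2 and −1.4 in Csf2ra, against a median of 1.04 over all features. The libraries of the shRNAs overlapped in Nacad and Epha2 and in no other region, and they did not overlap in 43.0% of all features. An unadjusted p under 0.05 was reached by 1 of the 6 regions, Ywhag. The share of all features that reached it was not counted, here or in the later comparisons. By limma on arcsine-transformed levels no region was called, and 0 of the 81487 features were. Of all 81487 features, 0.110% were called by edgeR in either direction.

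In EBs all 6 differences were positive, and again none was called by edgeR. Nr4a1 was higher in both shβcat libraries than in both shCtrl libraries, by 9.3 points (adjusted p = 0.089), and Ston2 likewise by 6.4 points (adjusted p = 0.16). The differences in Nacad, Csf2ra, Epha2 and Ywhag were 6.8, 3.2, 2.9 and 2.2 points. In each of the 6 regions both shβcat libraries were above both shCtrl libraries, as in 18.5% of all features, whose median difference was −0.82 points. In Ywhag the nearest libraries were at 87.1% and 87.4%. An unadjusted p under 0.05 was reached by 2 of the 6, Nr4a1 and Ston2, and limma called none. Of 71333 features, 0.121% were called by edgeR and 0 by limma. Nr4a1 passed by edgeR with at least 20 reads per CpG (adjusted p = 0.024). In that setting 763 features were called higher and 510 lower, of 41787. With 1 library left out, the difference in Nr4a1 ran from 7.5 to 11.2 points.

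Whether the gain from mESCs to EBs differed between shRNAs was tested as an interaction. By edgeR no region passed, and 0 of 68981 features did, which is 0%. The gain under shβcat minus that under shCtrl was −6.1 points in Ywhag, 5.4 in Nr4a1, 5.1 in Csf2ra, 1.8 in Nacad, 1.5 in Ston2 and 1.4 in Epha2. Nr4a1 alone had an unadjusted p under 0.05 by edgeR (adjusted p = 0.21), and none of the 6 did by limma.

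**Figure D3:**
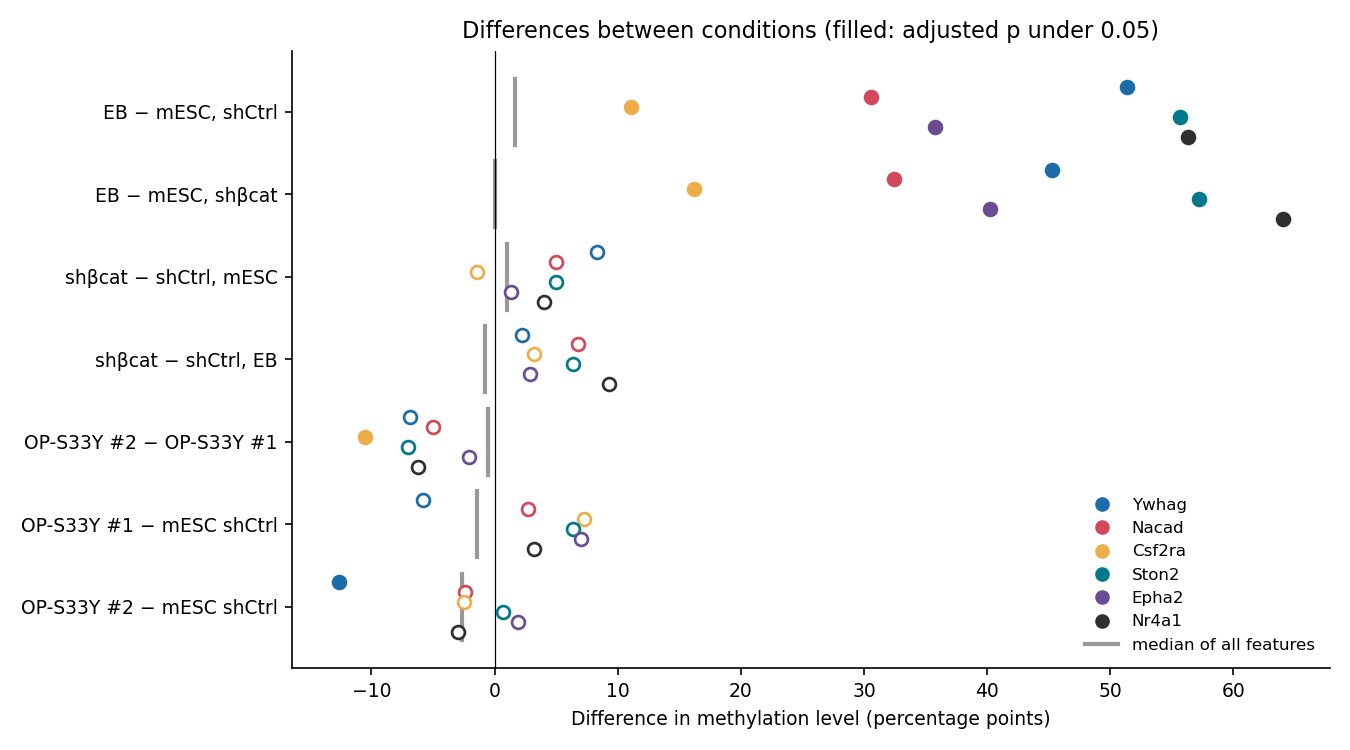
Difference in methylation level (x axis, percentage points) of each region in 7 comparisons (y axis). Filled points passed an adjusted p under 0.05 by edgeR, open points did not, and the grey line is the median of all features tested. Filled points are all 12 of the EB comparisons, Csf2ra between the clones and Ywhag in OP-S33Y #2 against mESC shCtrl.

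The S33Y clones were compared with each other and with mESC shCtrl. OP-S33Y #2 was lower than OP-S33Y #1 in all 6 regions, by 10.5 points in Csf2ra, 7 in Ston2, 6.9 in Ywhag, 6.2 in Nr4a1, 5 in Nacad and 2.1 in Epha2. The libraries of the clones overlapped in Epha2 and in no other region, and OP-S33Y #2 lay below without overlap in 30.9% of all features. One region was called lower by edgeR, Csf2ra (adjusted p = 0.036), as were 2.50% of 56534 features, and the median over all features was −0.50 points. An unadjusted p under 0.05 was also reached by Ston2 and Nr4a1. Limma called no region, and 0 of the 56534 features. The Csf2ra call was lost without OP-S33Y #1 replicate 2 (adjusted p = 0.27), without OP-S33Y #2 replicate 1 (adjusted p = 0.086) and without OP-S33Y #2 replicate 2 (adjusted p = 0.31).

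Against the same 2 mESC shCtrl libraries, OP-S33Y #1 had no called region by edgeR. Its differences ran from −5.8 points in Ywhag to 7.3 in Csf2ra, and 5 of the 6 were positive while the median of all features was −1.42. An unadjusted p under 0.05 by edgeR was reached by Csf2ra (adjusted p = 0.083), and 25.3% of 58378 features were called by edgeR in either direction. Limma called none of the regions, and 411 features higher and 4566 lower. OP-S33Y #2 was lower than mESC shCtrl in Ywhag, by 12.6 points (adjusted p = 0.0069 by edgeR), while the median of all features was −2.67. That was the only region called, and 29.9% of 67528 features were called lower. The Ywhag call was lost without OP-S33Y #2 replicate 1 (adjusted p = 0.061). The remaining differences were between −3 points in Nr4a1 and 1.9 in Epha2. Expression of S33Y β-catenin, clone, length of culture and viral transduction differ together between these conditions and cannot be told apart. Libraries with an shRNA also stood apart from those without one. They covered 919852 to 1152971 CpGs each, against 413282 to 881356. Median levels at the starts of 25 paralogs of the 6 genes were 2.7% to 4.8% by condition, against 0.4% to 0.8%. Whether this offset enters the differences between mESC shCtrl and either clone, or YP-mESCs, was not tested. Both comparisons of a clone with mESC shCtrl share their control libraries, as does that of EB shCtrl with mESC shCtrl.

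Across the 16 libraries the levels of the 6 regions were correlated with each other, with Pearson's r from 0.77 between Csf2ra and Nr4a1 to 0.98 between Ston2 and Epha2 (15 libraries where Nr4a1 is one of the pair). The libraries share conditions and the genome-wide shift between them, so these values only describe how alike the patterns are. Among 18547 tiles with at least 5 CpGs the pattern nearest to that of Ywhag lay in Med26 (r = 0.988), that of Nacad in Cit (r = 0.98), that of Csf2ra beside Acat3 (r = 0.953), that of Ston2 in Mras (r = 0.993), that of Epha2 in Gm20388 (r = 0.987) and that of Nr4a1 in Rrm2 (r = 0.991). Next to them came tiles in Rufy2 and Clasrp for Ywhag, in Got1 and Med27 for Nacad, and in Nfam1 and Gm20388 for Csf2ra. For Ston2 they lay in Gm20388 and Thrap3, for Epha2 in Setd1b and Thrap3, and for Nr4a1 in L3mbtl2 and Pgs1. The Gm20388 tile of Csf2ra (chr8:124222001-124223000) is not that of Ston2 and Epha2 (chr8:123087001-123088000).

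The study's list held 96 other regions that overlapped neither an imprinting control region of the study nor the 6 regions. Their median was 53.1% in YP-mESCs and 18.3% in OP-mESCs, values that the choice of the list fixed. Of the 96, a value in both libraries was present for 89 in YP-mESCs, 91 in OP-mESCs and 95 in OP-S33Y #1. In the other conditions it was present for all, and the medians are over the regions with such a value. The medians of the others and of the 6 were 42.0% and 32.6% in OP-S33Y #1, 34.0% and 26.6% in OP-S33Y #2, 47.4% and 31.4% in mESC shCtrl, 52.0% and 38.2% in mESC shβcat, 81.7% and 81.1% in EB shCtrl, and 82.9% and 88.6% in EB shβcat. The 6 regions thus had the lower median in clones and transduced mESCs, a median within 1 point of the others in EB shCtrl and the higher one in EB shβcat. All 96 others were higher in EB shCtrl than in mESC shCtrl, by 0.7 to 73.2 points with a median of 27.1, and 52 of them by more than 25 points. The difference between the 6 and the others was not tested.

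**Figure D4:**
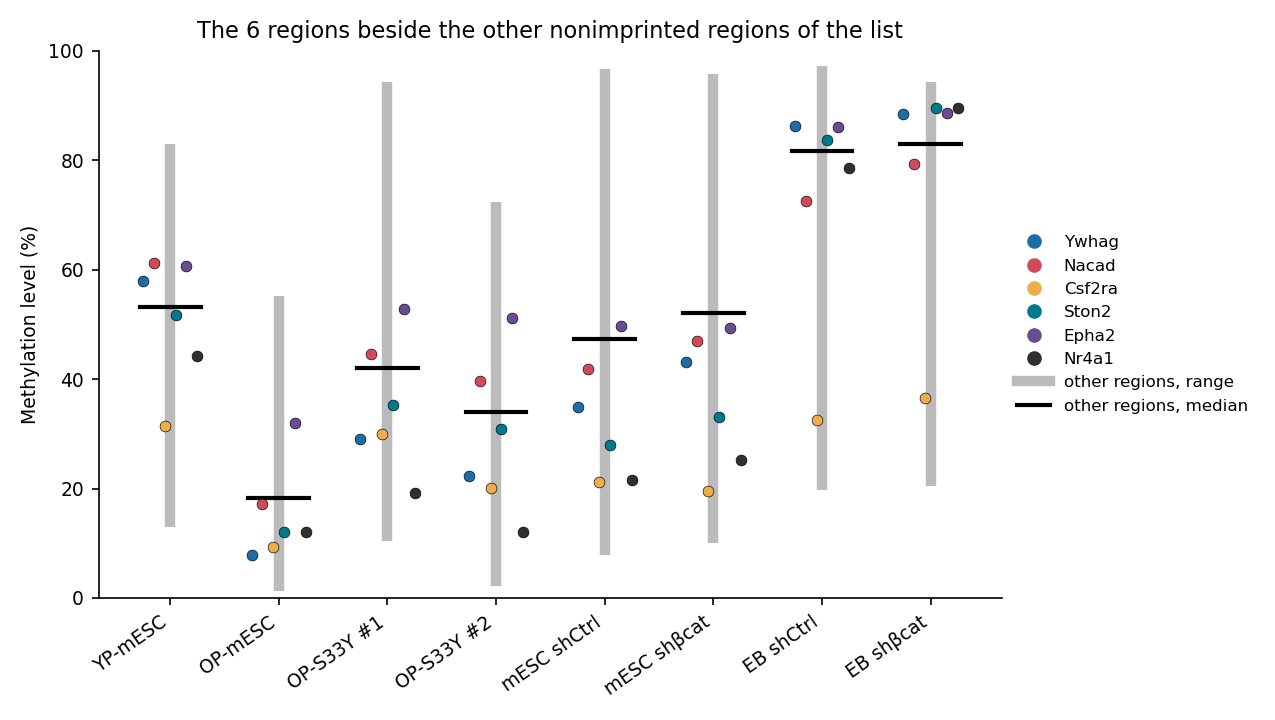
Methylation level (y axis, percent) of the 6 regions (coloured points) in the 8 conditions (x axis). Points are means of 2 libraries, except Nr4a1 in OP-mESCs, which has 1. The range (grey bar) and median (black line) are of the other nonimprinted regions of the list with a value in both libraries. Of the 6, Nr4a1 and Csf2ra lie lowest in mESC shCtrl, at 21.6% and 21.2%, and in EB shCtrl Nr4a1 is at 78.5% while Csf2ra is at 32.5%.

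Relatives of the 6 genes were read at their starts, among them Ywhaz, Epha4 and Nr4a2. Of 28 paralogs, 25 had a value within 1 kb of the start, and 24 of these were below 20% in every condition. The exception was Csf2rb, the shared signalling chain of the GM-CSF receptor, which lay between 79.0% and 93.1%. The letters TGCCGC, the core bound by the imprint protector ZFP57, were searched on both strands of the regions. They occurred 2 times in Nr4a1, 1 time each in Csf2ra, Ston2 and Epha2, and not in Ywhag or Nacad. Of 61508 windows of the same length as the Nr4a1 region, centred on covered 1 kb tiles, 36.1% held them, as did 43.8% at the length of Csf2ra, 28.2% at that of Ston2, 50.8% at that of Epha2, 16.3% at that of Ywhag and 6.36% at that of Nacad.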

How the data were processed

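Reduced representation bisulfite sequencing of 16 libraries (8 conditions, 2 each) was read from the deposited tables. Per the labels' processing notes and the paper, the authors used CASAVA 1.8.2, Trim Galore 0.2.8 and Bismark 0.7.9 with mm9. For each cytosine of a CpG they deposited the count of reads, not normalized, and the percent methylated and unmethylated. All deposited cytosines have at least 10 reads. Handling of duplicate reads is not given in the sources used here. Duplicates, and a read counted at each CpG it spans, make counts less independent than their number.

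Methylated reads were computed from count and percent, and strands were summed (R base moved by 1). The reference sequence held CG at the positions used. A level needed 2 CpGs with 10 reads. Features with at least 3 such CpGs in all libraries compared, the 6 regions and 1 kb tiles, were tested with edgeR 4.0.16 (glmQLFit and glmQLFTest, an intercept per library, Benjamini-Hochberg over all features, called at an adjusted p under 0.05), with limma 3.58.1 as an alternative, in R 4.3.3 and Python 3.11.15 with numpy 2.4.6, pandas 2.3.3 and matplotlib 3.10.9. The script was tested on simulated reads. With 2 libraries against 2, an exact permutation test cannot go below 0.33 and was not used. The labels do not say whether replicates were separate cultures, so p-values measure the spread between these libraries, which may be technical. Same-numbered replicates did not deviate together.

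The members and lists were chosen with earlier results of these data known. The genes named are the 6 members in every condition, their paralogs, the genes nearest to the 3 tiles most correlated with each, and the study's other listed regions. Columns of the study's own comparisons were not used.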

Additional observations from a re-analysis of the deposited data

How the results depend on the processing

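The calls in EBs against mESCs held under every alternative for 5 regions, with 5 or 6 of 6 called. With the replicate block, which the data give no ground for since same-numbered libraries did not deviate together, 5 were called in EB shCtrl against mESC shCtrl, where Csf2ra was at 11.1 points (adjusted p = 0.12), and 6 with shβcat. For shβcat against shCtrl in EBs the block gave 2 calls, Ston2 and Nr4a1, in place of 0, and it raised the calls over all features from 73 higher and 13 lower to 2958 and 3477. A minimum of 20 reads gave 1 call there and 1 in OP-S33Y #1 against mESC shCtrl, in place of 0. In shβcat against shCtrl EBs it also raised the calls over all features, to 763 higher and 510 lower. Between the clones, 0 in place of 1 were called by limma, with 20 reads and with a difference of over 25 points. That last setting also left 0 in OP-S33Y #2 against mESC shCtrl. Between the clones limma called 0 of all 56534 features. With 1 library left out, the range was 0 to 1 in shβcat against shCtrl in EBs, in OP-S33Y #2 against #1 and in OP-S33Y #2 against mESC shCtrl, 5 to 6 in EB against mESC with shCtrl, and 6 throughout with shβcat.

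Some differences that did not pass changed sign. With 20 reads Ston2 was at −0.9 points in OP-S33Y #2 against mESC shCtrl and at −2.1 in the interaction. With 1 library left out, Nacad ranged from −1.0 to 6.4 points in OP-S33Y #1 against mESC shCtrl, and in OP-S33Y #2 against mESC shCtrl Nacad ranged from −6.1 to 1.4, Ston2 from −0.5 to 5.7 and Epha2 from −0.8 to 4.6. Epha2 ranged from −1.4 to 4.2 in shβcat against shCtrl mESCs. In the interaction Nacad ranged from −1.9 to 5.6, Ston2 from −1.0 to 4.0 and Epha2 from −1.5 to 4.4. Levels moved by at most 2.0 points when weighted by reads, 2.6 with 20 reads, 3.6 with strands kept apart, 3.8 with 1 replicate left out and 6.1 over common CpGs, the latter for Ston2 in mESC shCtrl. Why these values moved was not tested. Depth limits Nr4a1 and Csf2ra in OP-mESC replicate 2, with 1 and 13 CpGs.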
